A study of Mus musculus with 37 samples.

Results

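The comparison set 8 libraries of T cell high tumours against 7 libraries of T cell low tumours, 15 of the 37 libraries in the series. They were the high and low libraries in which Myh6 and Myh7, heart myosins, and Cps1 and Serpina3k, liver genes, summed to at most 10 CPM (counts scaled to the library total, per M counts, M for mega). That sum was 0.0652 to 0.538 CPM in the 15 libraries and 283 to 5922 CPM in the 15 high and low libraries left out, so no library lay near the limit. Every tumour grew from mouse pancreatic tumour cells implanted under the skin of C57BL/6 mice, received no treatment and was taken 3 weeks after implantation. The sources used here do not give the age of the mice, how the T cell phenotype was assigned or the genotype of the tumour cells. The name of a library joins a tumour cell clone, such as bulk_2838c3, with a tumour number. Because tumours of 1 clone come from the same implanted cells, libraries were summed by clone and clones served as replicates. The high group held 7 clones, bulk_2838c3 (2 libraries), bulk_6421c2, bulk_6499c4, bulk_6555c3, bulk_6556c4, bulk_6620c1 and bulk_7160c2. The low group held 6 clones, bulk_2669c4 (2 libraries), bulk_6419c1, bulk_6419c5, bulk_6499c3, bulk_6556c3 and bulk_6694c2. Each group is thus a handful of clones and most clones are represented by 1 tumour.

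Pancreatic ductal tumours vary in how many T cells they hold. Cytotoxic T cells carry the CD8 co-receptor beside the T cell receptor and, after repeated stimulation, the inhibitory receptor PD-1, while cross-presenting dendritic cells prime them. Tumour cells and stroma also release chemokines such as CXCL1, which draws granulocytes through the receptor CXCR2. Carcinoma cells keep or lose junction proteins, epithelial splicing factors and surface proteases as they move between epithelial and mesenchymal states. A whole tumour was measured here, so fewer cells of a type and less RNA per cell cannot be told apart.

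Libraries held 26.5 to 44.4 M counts, with 36.4 ± 5.51 M (SD) in the 8 high and 31.6 ± 6.29 M in the 7 low libraries. The tumours carried ductal keratins at high levels: Krt19 was at 1388 ± 502 CPM in the 7 high clones and 1506 ± 415 CPM in the 6 low clones (SD). Among these libraries several clones went against their labels in T cell transcripts. The high clone bulk_6620c1 had 0.114 CPM of Cd8a and 0.548 CPM of Trbc2, inside the range of the low clones. High clones bulk_6499c4 and bulk_6555c3 were also inside that range for Cd8a (0.388 and 0.519 CPM), but above it for Trbc2 (4.79 and 2.73 CPM). The low clone bulk_2669c4 had 1.38 CPM of Cd8a, 1.93 CPM of Pdcd1 and 12.96 CPM of Trbc1, the last above every high clone. Some transcripts of liver genes also remained. The liver gene Alb reached 124 CPM in low clone bulk_6419c1, 16.7 CPM in low clone bulk_6499c3 and 10.8 CPM in 1 library of high clone bulk_2838c3. Alb was at 4.82 CPM or less in the other 12 libraries. In bulk_6419c1 Cps1 and Serpina3k were at 0.467 and 0.0718 CPM. In bulk_2669c4_no1, a library left out, Alb, Cps1 and Serpina3k were at 2512, 305 and 268 CPM. Apob, another liver gene, was at 967 CPM in bulk_6499c3, 321 CPM in low clone bulk_6419c5 and 266 CPM in low clone bulk_6556c3. Alb was at 16.7, 4.82 and 0.09 CPM there. In bulk_6419c1, the clone with the most Alb, Apob was at 666 CPM. A limit on Alb, as used below, therefore leaves clones with high Apob in the comparison. Whether the remaining transcripts came from liver tissue was not tested. The liver list had a summed level of 47.9 to 667 CPM in high libraries and 98.2 to 1184 CPM in low libraries. Of its 20 genes 6 could be tested, 5 of them were lower in high clones, and 3 (Fgb, Ttr and Apob) had an unadjusted p under 0.05. The median of the 6 was -2.08, and -0.97 without bulk_6419c1, and Fgb went from -4.85 to -1.06. Below, several values are also given without these clones or libraries.

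Across all 16201 genes tested, edgeR called 0.0% (0 genes) at an adjusted p under 0.05. The smallest adjusted p was 0.283, for Fam43a. An unadjusted p under 0.05 was reached by 1071 (6.61%), 545 (3.36%) higher and 526 (3.25%) lower in high clones. DESeq2 on the same clone sums called 60 genes, 47 higher (0.29%) and 13 lower (0.0802%), and limma voom called 0, with 993 at an unadjusted p under 0.05. The shares of all genes are the background for each count of gene list members below, and no gene below passed the edgeR adjustment. The lists were chosen with earlier results of these data known. Those of T cell and epithelial genes also hold Cd8a, Trbc2, Cldn7 and Esrp1, markers chosen for this comparison. A share above the background is therefore a description and no test of a list. "At p under 0.05" below means the unadjusted edgeR p. Levels are CPM scaled by TMM (trimmed mean of M values), as mean ± SD over 7 high and 6 low clones unless library values are given. Differences are log2, high minus low, with their standard error (SE).

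Transcripts that mark T cells were low in every library, and several stood higher in high clones. Cd8a encodes the CD8 alpha chain (chr6:71373427-71379173, mm10, plus strand). In the 8 high libraries Cd8a was at 0.114 CPM at the lowest, 1.31 CPM at the median and 6.19 CPM at the highest, and in the 7 low libraries at 0.0366, 0.453 and 1.51 CPM. The groups overlapped, with 4 of 7 high clones above every low clone. The clone means were 1.87 ± 1.65 and 0.473 ± 0.497 CPM, a difference of 1.93 (SE 0.81, edgeR adjusted p = 0.710). Low libraries rested on 1 to 66 Cd8a counts, so counting error is large there. The 2 tumours of high clone bulk_2838c3 had 0.868 and 6.19 CPM of Cd8a, the latter the highest of all libraries. Without the low clone bulk_2669c4 the Cd8a difference was 2.66, and without the high clone bulk_6620c1 it was 2.14. These clones were singled out by their T cell transcripts, so a larger difference without them follows from that choice. The same holds for other T cell genes and their counts given without these clones below. Without the high clone bulk_6421c2 the Cd8a difference was 1.59, the lowest with 1 clone left out.

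Trbc2 encodes a constant region of the T cell receptor beta chain (chr6:41546730-41548352, plus strand). Trbc2 ranged from 0.546 to 6.11 CPM in high libraries, with a median of 2.33 CPM, and from 0.183 to 1.39 CPM in low libraries, with a median of 0.558 CPM. All high clones but bulk_6620c1 were above every low clone. The clone means were 2.83 ± 1.95 and 0.585 ± 0.345 CPM, a difference of 2.24 (SE 0.53, edgeR adjusted p = 0.510, DESeq2 adjusted p = 0.00687). Its near-identical neighbour Trbc1 differed by -1.16 (SE 0.90), with low clone bulk_2669c4 at 12.96 CPM against 0.381 to 1.95 CPM in the other low clones. Reads of the 2 constant regions may be split between them by the counting, so neither level alone is the receptor's. Pdcd1, the gene of PD-1 (chr1:94038305-94052553, minus strand), had medians of 1.55 CPM in high and 0.534 CPM in low libraries, with ranges of 0.644 to 5.80 and 0.402 to 2.55 CPM. The ranges overlapped through bulk_2669c4 among the low clones, 3 high clones stood above it, and all 7 high clones (0.686 CPM or more) stood above the other 5 low clones (0.550 CPM or less). The Pdcd1 difference was 1.45 (SE 0.47, edgeR adjusted p = 0.652). It was 2.04 without bulk_2669c4 and 1.23 without high clone bulk_7160c2.

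**Figure D1:**
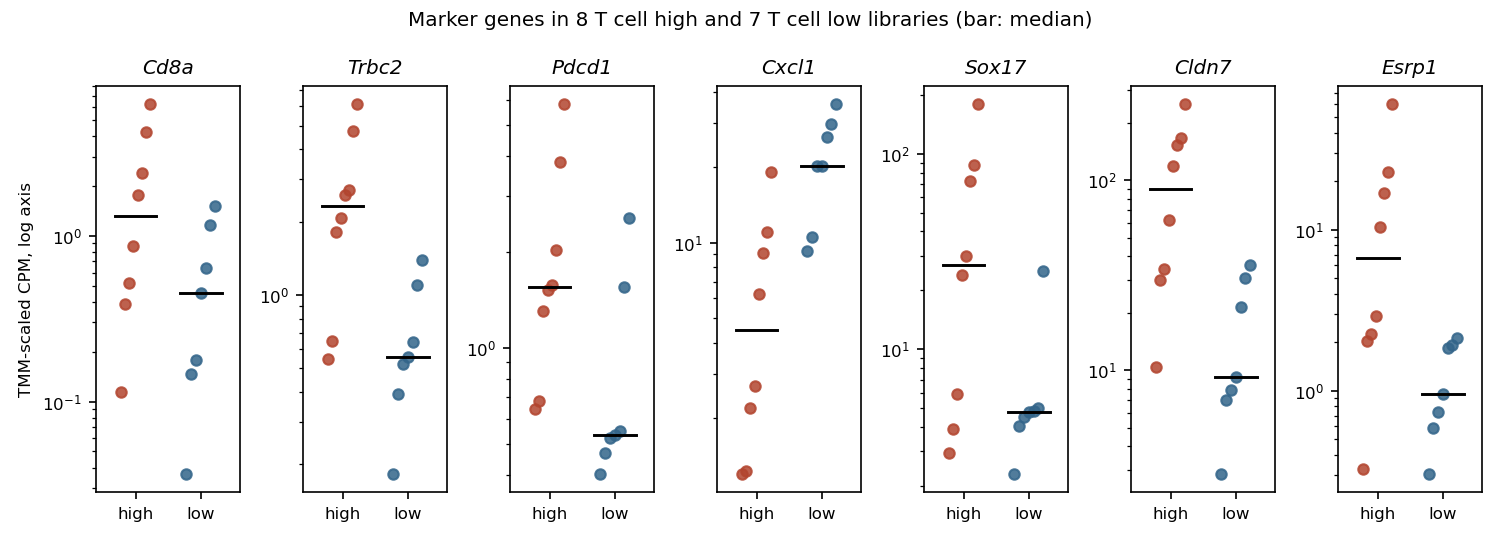
TMM-scaled CPM on log axes of the 7 marker genes in the 8 high and 7 low libraries, 1 point per library, with the median as a bar. The medians of Trbc2 were 2.33 CPM in high and 0.558 CPM in low libraries, and for every gene at least 1 high library lies within the low range.

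Of the T cell receptor and T cell identity list, 32 of 35 genes could be tested and 29 of them were higher in high clones, against 50.2% of all genes. At p under 0.05 there were 9 higher and 0 lower, 28.1% of the list against a background of 3.36%, and the median difference was 0.58 against 0.00 for all genes. Among the 9 were Cd8a, Trbc2, Cd3g, Cd28, Skap1, Zap70, Lck and Ubash3a. Zap70 and Lck encode kinases that act directly below the receptor. Cd3g, a receptor chain, was at 1.93 ± 0.915 and 0.874 ± 0.478 CPM, a difference of 1.13 (SE 0.41). Cd28, the costimulatory receptor, was at 0.915 ± 0.298 and 0.522 ± 0.146 CPM, with 5 of 7 high clones above every low clone. Cd3e, a pan-T cell chain, differed by 0.72 (SE 0.52), and Cd4 by 0.20 (SE 0.34), neither at p under 0.05. The count of 9 moved with the clones left out. It was 19 without bulk_2669c4 and 11 without bulk_6620c1, both singled out by their T cell transcripts, so these larger counts follow from that choice. The count was 2 when libraries above 10 CPM of Alb were left out, which leaves 4 low clones.

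Lists of T cell function held small counts of genes at p under 0.05. Among 12 tested cytotoxic effectors 2 were higher (16.7%, background 3.36%) and 1 lower (8.33%, background 3.25%) at p under 0.05. Ccl5, a chemokine of activated T cells, was at 1.91 ± 0.809 and 0.942 ± 0.719 CPM, a difference of 0.997 (SE 0.44). The Ccl5 difference was 1.503 without bulk_2669c4 and 0.826 without low clone bulk_6694c2. Eomes, a T-box factor of cytotoxic and natural killer cells, was at 1.29 ± 1.07 and 4.49 ± 3.86 CPM, a difference of -1.80 (SE 0.68). Eomes was above 8 CPM in low clones bulk_6499c3 and bulk_6694c2, whose Cd8a levels were 0.147 and 0.0367 CPM. Gzmb, the granzyme B gene, differed by -0.53 (SE 0.57). In the regulatory T cell list 10 of 11 tested genes were higher, with a median of 0.46, and 2 (18.2%) were so at p under 0.05. They were Ccr8, a chemokine receptor, at 0.631 ± 0.322 and 0.269 ± 0.234 CPM, and Lrrc32, at 35.5 ± 11.2 and 23.6 ± 8.62 CPM. Lrrc32 lay far above Ccr8 and Cd8a in level, and whether it came from regulatory T cells was not tested. Lrrc32 was at 31.7 CPM in high clone bulk_6499c4 and 34.8 CPM in low clone bulk_6499c3. It was at 33.8 CPM in high clone bulk_6556c4 and 21.6 CPM in low clone bulk_6556c3. The Ccr8 difference of 1.13 was 1.77 without bulk_2669c4 and 0.93 without high clone bulk_7160c2. The Lrrc32 difference of 0.59 was 0.93 without libraries above 10 CPM of Alb and 0.44 without high clone bulk_6620c1. Foxp3, the lineage factor, differed by 0.60 (SE 0.33).

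Genes of dendritic cells were higher beside those of T cells. In the list of cross-presenting and mature dendritic cells 16 of 19 tested genes were higher and 4 (21.1%) were so at p under 0.05. They were Flt3, the receptor for the growth factor of the lineage, with a difference of 0.69 (SE 0.28), Clec9a, a receptor for dead cells, with 0.86 (SE 0.37), Ccl22, a chemokine for Ccr4, with 1.10 (SE 0.46), and Cd24a, which ductal cells express as well, with 0.31 (SE 0.14). Flt3 was at 2.96 ± 0.943 and 1.83 ± 0.578 CPM, and 5 of 7 high clones were above every low clone. The count of 4 was 0 without low clone bulk_6694c2 and 7 without bulk_2669c4. Macrophage genes were near the background with 1 of 23 higher and 1 lower, and C1qa, a complement gene of tissue macrophages, differed by 0.14 (SE 0.22). MHC class I genes, which present peptides to CD8 T cells, were higher for 18 of 21 with 1 at p under 0.05, H2-Q7, at 38.2 ± 32.1 and 15.4 ± 9.92 CPM. H2-Q7 and its near-identical neighbours H2-Q6 and H2-Q8 share sequence, so their separate levels are uncertain. None of the 30 interferon response genes was at p under 0.05, and their median was 0.05.

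Cxcl1, the granulocyte chemokine (chr5:90891241-90893115, plus strand), was lower in high clones. It was at 1.20 CPM at the lowest, 4.47 at the median and 19.1 at the highest in high libraries, and at 9.29, 20.3 and 35.5 CPM in low libraries. All high clones but bulk_6556c4 were below every low clone. The clone means were 6.74 ± 6.17 and 21.4 ± 10.4 CPM, a difference of -1.66 (SE 0.55, edgeR adjusted p = 0.652, DESeq2 adjusted p = 0.147). Among related chemokines Cxcl2 differed by -0.12 (SE 0.52) and Cxcl5 by -0.44 (SE 0.36). In the list of granulocyte-attracting and growth factors 2 of 18 (11.1%) were lower at p under 0.05, Cxcl1 and the cytokine gene Lif (-0.66, SE 0.25), and Il23a, a subunit of interleukin 23, was higher (1.05, SE 0.45). The granulocyte list itself had a median of -0.07 with 0 of 20 higher and 1 lower at p under 0.05. S100a8, an abundant granulocyte gene, was at 31.6 ± 31.0 and 32.05 ± 13.9 CPM, a difference of -0.02 (SE 0.51). High clones spanned 7.08 to 97.1 CPM of S100a8, with bulk_6556c4 the highest, and low clones 18.7 to 56.1 CPM.

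The epithelial junction, adhesion and splicing list held the largest number of genes at p under 0.05 of the 37 lists, and also the most tested genes. By share, 33.9% of its tested genes were at p under 0.05 in either direction. That was less than 50% of 6 liver genes and 46.2% of 13 mitochondrially encoded genes. Of 58 genes 56 could be tested, 18 (32.1%, background 3.36%) were higher and 1 (background 3.25%) lower at p under 0.05, and the median difference was 0.38. DESeq2 called 6 of them: St14, Esrp1, Ap1m2, Cldn7 and Cldn3, which were higher, and Macc1, which was lower. Over the 13 fits that left out 1 clone each, the count of higher genes ran from 14 (without low clone bulk_6694c2, and also without high clone bulk_7160c2) to 20. It was 17 without bulk_6620c1, 17 without bulk_2669c4 and 16 without the libraries above 10 CPM of Alb.

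Cldn7, a claudin of the tight junction (chr11:69964779-69967885, plus strand), ranged from 10.4 to 251 CPM in high libraries, with a median of 90.5 CPM, and from 2.85 to 35.9 CPM in low libraries, with a median of 9.27 CPM. Of 7 high clones 5 were above every low clone, bulk_6421c2 stood at 34.5 CPM and bulk_2838c3 at 18.9 CPM within the low range. The means were 116 ± 83.3 and 16.9 ± 13.7 CPM, a 6.82-fold difference (log2 2.77, SE 0.67, edgeR adjusted p = 0.510, DESeq2 adjusted p = 0.0141). Esrp1, a splicing factor that makes epithelial isoforms (chr4:11331933-11386783, minus strand), was at 0.325, 6.63 and 59.8 CPM at the lowest, median and highest in high libraries and at 0.304, 0.961 and 2.13 CPM in low libraries. All high clones but bulk_2838c3 were above every low clone, though bulk_7160c2 alone held 48.5% of the level summed over clones. The Esrp1 difference was 3.77 (SE 0.87, edgeR adjusted p = 0.510, DESeq2 adjusted p = 0.00278), and 2.95 without bulk_7160c2. Its paralogue Esrp2 differed by -0.36 (SE 0.32).

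The remaining members fell into surface proteins, proteases and transport genes. St14, the membrane protease matriptase, was at 4.71 to 155 CPM in high clones and 2.07 to 18.2 CPM in low clones, with 6 of 7 high clones above every low clone and a difference of 3.37 (SE 0.74). Its inhibitor gene Spint1 was at 46.3 ± 25.9 and 23.6 ± 8.99 CPM, a difference of 0.97 (SE 0.34). Epcam, an epithelial adhesion protein, was at 360 ± 249 and 92.3 ± 119 CPM, and Cldn3, another claudin, at 44.0 ± 51.4 and 3.01 ± 3.22 CPM. Junction genes with smaller differences were Ocln, occludin, at 34.8 ± 8.05 and 19.4 ± 6.51 CPM, Marveld2 (0.55, SE 0.22) and Marveld3 (1.37, SE 0.52). Ap1m2, an adaptor subunit of basolateral sorting, differed by 4.19 (SE 1.06), with 59.1% of its summed level in bulk_7160c2, and Rab25, a recycling GTPase, by 2.45 (SE 0.81). Map7, a microtubule-binding protein, was at 13.9 ± 9.26 and 4.42 ± 2.89 CPM, a difference of 1.66 (SE 0.49). The other members higher at p under 0.05 were Tmc4 (1.91, SE 0.64), the claudin gene Cldn23 (1.09, SE 0.42) and the desmosomal gene Perp (0.39, SE 0.17). The transcription factor genes Ovol1, Ovol2 and Ehf differed by 0.89 (SE 0.35), 3.03 (SE 0.86) and 0.99 (SE 0.43). Macc1 was the lower member, at 0.496 ± 0.462 and 4.52 ± 6.13 CPM, with 50.8% of the level summed over clones in low clone bulk_2669c4. Cdh1, the E-cadherin gene, was at 800 ± 182 and 819 ± 231 CPM, a difference of -0.03 (SE 0.20). The keratin genes Krt8 and Krt18 differed by -0.26 (SE 0.20) and -0.09 (SE 0.24), neither at p under 0.05.

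**Figure D2:**
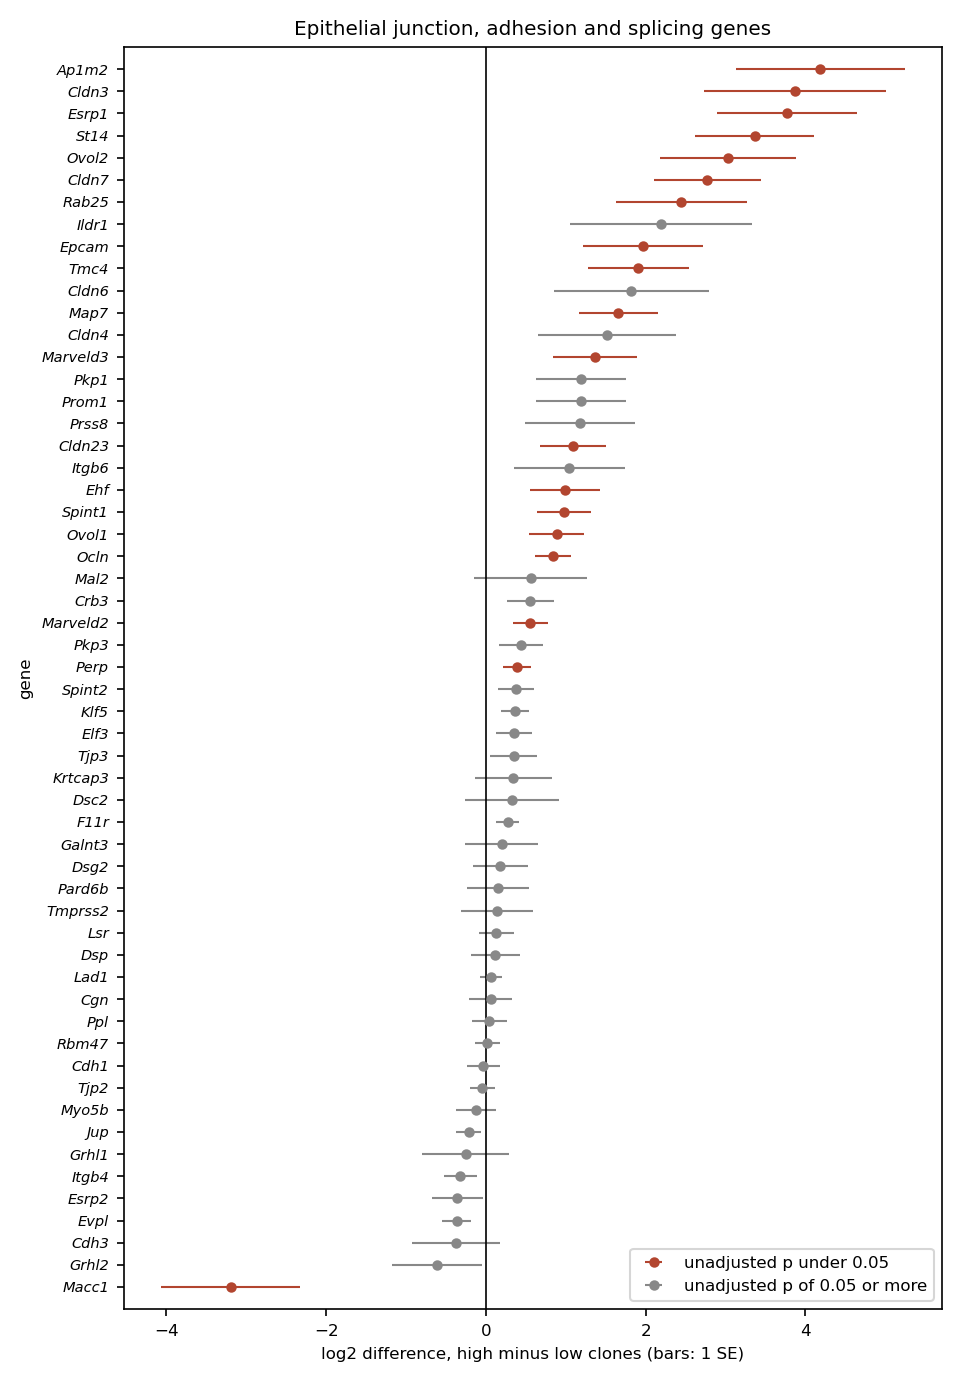
The log2 difference between high and low clones, with 1 SE, for the 56 tested genes of the epithelial list, sorted by size. The 19 genes at an unadjusted p under 0.05 are coloured, 18 of them to the right of 0 and Macc1 to the left, and Cdh1 lies at -0.03.

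The letters upstream of these genes were looked at because several of them were higher in the same clones. Promoter sequences from RefSeq (GRCm38.p6) matched 33 of the 56 tested genes by symbol, with 43 windows of the 250 bases before a start site. The motif searched was the E-box CACCTG, on both strands (CAGGTG), which is the sequence that Zeb and Snail repressors are known to bind. It stood in 23 of the 43 windows (53.5%), against 17.2% of all 32851 windows. The share varied between lists: it was found in 11 of 27 windows (40.7%) of ductal keratin and mucin genes, 8 of 26 (30.8%) of T cell genes and 2 of 35 (5.71%) of cell cycle genes. It stood in 7 of the 14 windows of genes that were higher at p under 0.05 and in 16 of the 29 windows (55.2%) of the rest of the list. The epithelial windows held a median of 60% G and C, and all windows 52.4%. The windows of Ap1m2 (chr9:21312334-21312583, minus strand), Rab25 (chr3:88548280-88548529, minus strand) and Epcam (chr17:87635729-87635978, plus strand) are shown because they hold 2 or more matches, which stand in capitals. Each is written 5′ to 3′ along the strand of its gene.
Ap1m2: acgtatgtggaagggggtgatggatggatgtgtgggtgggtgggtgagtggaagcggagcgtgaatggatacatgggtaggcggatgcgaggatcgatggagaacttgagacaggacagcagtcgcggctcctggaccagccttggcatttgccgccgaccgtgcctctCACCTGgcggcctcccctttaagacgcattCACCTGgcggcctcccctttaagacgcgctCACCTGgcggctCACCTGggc
Rab25: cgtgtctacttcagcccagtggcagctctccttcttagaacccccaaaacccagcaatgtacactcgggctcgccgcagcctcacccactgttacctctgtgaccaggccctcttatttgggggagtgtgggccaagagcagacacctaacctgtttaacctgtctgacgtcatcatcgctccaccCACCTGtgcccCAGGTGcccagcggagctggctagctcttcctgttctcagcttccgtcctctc
Epcam: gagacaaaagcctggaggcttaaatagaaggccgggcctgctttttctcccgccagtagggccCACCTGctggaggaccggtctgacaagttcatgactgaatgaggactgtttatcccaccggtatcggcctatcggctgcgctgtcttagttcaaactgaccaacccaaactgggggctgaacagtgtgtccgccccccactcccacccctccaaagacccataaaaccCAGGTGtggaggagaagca
Ap1m2 holds CACCTG 4 times, beginning at -81, -51, -21 and -9 from the start site. Rab25 and Epcam each hold it once in either orientation, at -64 and -53 and at -187 and -19. These matches are a description of the letters and no evidence of binding. The Zeb and Snail genes did not differ at p under 0.05: Zeb1 was at 46.8 ± 8.42 and 52.0 ± 14.2 CPM (-0.15, SE 0.17), Zeb2 differed by -0.02 (SE 0.11) and Snai1 by -0.14 (SE 0.28).

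Mesenchymal genes were mostly level, and 2 of 32 (background 3.25%) were lower in high clones at p under 0.05 with 0 higher. Vim, an intermediate filament of mesenchymal cells, was at 2216 ± 715 and 3249 ± 507 CPM, a difference of -0.55 (SE 0.21), with 5 of 7 high clones below every low clone. S100a4, a calcium-binding protein of motile cells, was at 42.7 ± 36.6 and 115 ± 67.3 CPM, also with 5 high clones below every low clone. Genes of fibroblasts and collagen had a median of 0.03, and Col1a1, the main collagen gene, differed by 0.05 (SE 0.28). Pecam1, an endothelial gene, differed by 0.00 (SE 0.20).

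Sox17, an endoderm transcription factor (chr1:4490931-4497354, minus strand), was at 2.94, 26.8 and 178 CPM at the lowest, median and highest in high libraries and at 2.30, 4.75 and 25.2 CPM in low libraries. High clones fell apart into bulk_6421c2, bulk_6499c4, bulk_6555c3, bulk_6556c4 and bulk_6620c1 at 23.9 to 179 CPM and bulk_2838c3 and bulk_7160c2 at 4.203 and 3.91 CPM. The low clones were at 2.31 to 5.01 CPM apart from bulk_6419c5 at 25.3 CPM. The difference was 2.90 (SE 0.87, edgeR adjusted p = 0.628, DESeq2 adjusted p = 0.0893). It was 3.78 without bulk_6419c5 and 2.28 without bulk_6421c2. Sox17 was the only 1 of 23 tested fate factors at p under 0.05. Cdx2, an intestinal factor, differed by 1.58 (SE 0.77), and Gata6, a factor of differentiated pancreatic tumours, by -0.12 (SE 0.29).

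Mucin and ductal genes moved in both directions. In the list of ductal keratins and mucins 5 of 36 (13.9%) were higher and 1 lower at p under 0.05. Lgals4, a galectin of gut epithelium, was at 597 ± 289 and 241 ± 208 CPM, Ctse, the gastric protease cathepsin E, at 848 ± 227 and 519 ± 239 CPM, and Vsig2 at 10.5 ± 10.8 and 2.14 ± 1.80 CPM. Muc5b, a gel-forming mucin, was lower, at 2.28 ± 2.36 and 31.8 ± 42.5 CPM, a difference of -3.79 (SE 1.11). Muc5b was at 100.1 CPM in low clone bulk_6419c1 and 70.4 CPM in low clone bulk_6499c3, both above 10 CPM of Alb. It was at 1.61 to 8.71 CPM in the other low clones. The Muc5b difference was -1.35 when libraries above 10 CPM of Alb were left out. C3, a complement gene of liver and stroma, likewise had 3897 CPM in bulk_6419c1, and its difference went from -1.92 (SE 0.62) to -0.73 without those libraries. Whether liver RNA had a part in either was not tested.

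Receptor and ligand genes of growth factor pathways also stood out singly. Erbb3, a partner receptor of the EGF receptor family, was at 134 ± 38.4 and 66.1 ± 30.8 CPM (1.02, SE 0.27, edgeR adjusted p = 0.515), the only 1 of 29 tested in its list at p under 0.05. Lgr5, a Wnt target and stem cell receptor, was at 13.6 ± 8.90 and 4.15 ± 2.22 CPM (1.71, SE 0.49), and the ligand gene Wnt7a at 32.7 ± 29.95 and 7.45 ± 8.88 CPM (2.13, SE 0.82). Znrf3, a ligase that removes Wnt receptors, was lower, with a difference of -0.45 (SE 0.18), which left 2 of 30 Wnt genes higher and 1 lower. Epha4 and Ephb2, Eph receptors, differed by 1.07 (SE 0.23) and 1.25 (SE 0.50). Epha2 differed by -0.25 (SE 0.18), and Ptgs2, the cyclooxygenase gene of prostaglandin synthesis, was at 76.6 ± 31.7 and 131 ± 43.0 CPM (-0.77, SE 0.29, and -0.42 without libraries above 10 CPM of Alb).

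Most cell cycle and antioxidant genes stood lower in high clones. Of 40 cell cycle genes 37 were lower, 4 (10%, background 3.25%) were so at p under 0.05, and the median was -0.24. The 4, Cdc6, Cdc45, Mcm4 and Rrm2, serve DNA replication, and Cdc6 was at 14.7 ± 3.80 and 22.2 ± 5.69 CPM. Mki67, the proliferation marker, differed by -0.20 (SE 0.23). The count of 4 was 1 without bulk_2669c4 and 11 without bulk_6419c1. Of 24 Nrf2 target genes 19 were lower and 5 (20.8%) were so at p under 0.05: Gstm2, Osgin1, Pgd, Slc7a11 and Gstm1. Slc7a11, the cystine transporter, was at 30.2 ± 21.4 and 77.3 ± 57.6 CPM, and Gstm2, a glutathione transferase, at 13.96 ± 4.84 and 27.5 ± 16.7 CPM. The differences of Gstm2 and Osgin1, -0.98 and -0.92, were -0.56 and -0.51 without libraries above 10 CPM of Alb. That count was 2 without bulk_2669c4 and 9 without bulk_2838c3. Of 35 hypoxia and glycolysis genes 30 were lower, with 2 at p under 0.05, Pgk1 (-0.54, SE 0.19) and Ddit4 (-0.49, SE 0.22). Mycl, a MYC family gene, was higher, at 10.1 ± 5.46 and 3.00 ± 1.16 CPM (1.75, SE 0.43), while Myc differed by -0.47 (SE 0.36).

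Mitochondrially encoded genes were higher for 13 of 13 tested, with 6 (46.2%) at p under 0.05 and a median of 0.75. Their share of a library ran from 1.42% to 6.88% in high and from 1.22% to 3.26% in low libraries, and bulk_6620c1 held the highest. Without bulk_6620c1 the count was 1 and the median 0.40. The part of this share in the other results was not tested.

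**Figure D3:**
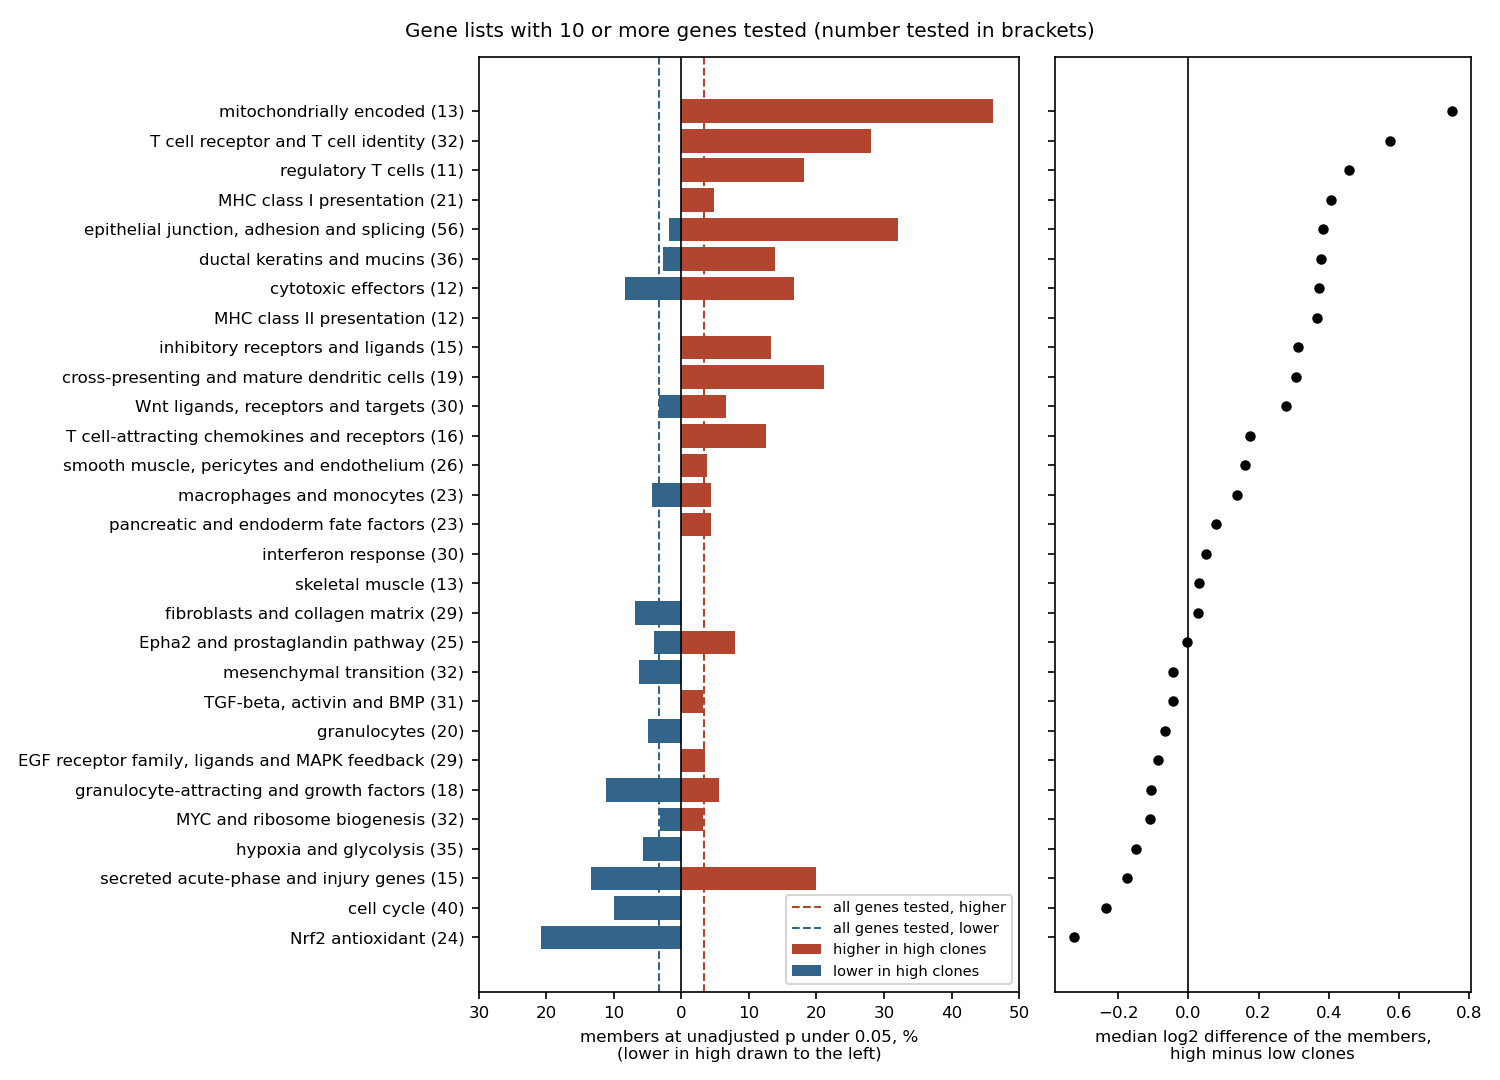
For each list with 10 or more tested genes, the percentage of members at an unadjusted p under 0.05 higher (right) and lower (left) in high clones, with the shares of all genes as dashed lines, and the median log2 difference. The epithelial list reaches 32.1% higher and the Nrf2 list 20.8% lower, against 3.36% and 3.25% of all genes. The lists were chosen with earlier results of these data known, so the shares are descriptive.

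Between clones the lists did not move as a block. Each list was summarised per clone as the median of its genes' log2 levels relative to their means over 13 clones. The T cell list was at -0.41 in high clone bulk_6620c1 and -0.17 in bulk_6555c3, which had 0.59 and 0.42 for the epithelial list. High clone bulk_2838c3 had 0.71 for T cells and -0.18 for epithelial genes, and bulk_7160c2 had 0.80 and 0.85. Among low clones bulk_6694c2 was lowest in both, at -1.05 and -1.21, while bulk_2669c4 had 0.54 for T cells and -0.44 for epithelial genes. Low clones bulk_6419c1 and bulk_6419c5 share a number and were counted as separate replicates. Their libraries correlated at 0.972 (log2 CPM). The 2 tumours of bulk_2838c3 correlated at 0.967, those of bulk_2669c4 at 0.984, and bulk_6499c4 and bulk_6555c3, of different numbers, at 0.977. A high and a low clone share a number in 2 pairs. Cxcl1 was at 2.69 CPM in high clone bulk_6499c4 and 9.32 CPM in low clone bulk_6499c3. It was at 19.2 CPM in high clone bulk_6556c4 and 35.7 CPM in low clone bulk_6556c3. St14 was at 37.2 and 4.19 CPM in the former pair and at 21.5 and 2.75 CPM in the latter. Other genes went against the group difference in the bulk_6556 pair: Pcdh7 was at 21.1 CPM in the high and 5.74 CPM in the low clone, Ptgs2 at 122 and 67.0 CPM, and Mycl at 3.19 and 4.52 CPM. Esrp1 was at 2.91 and 1.94 CPM in the bulk_6499 pair, a log2 difference of 0.57.

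**Figure D4:**
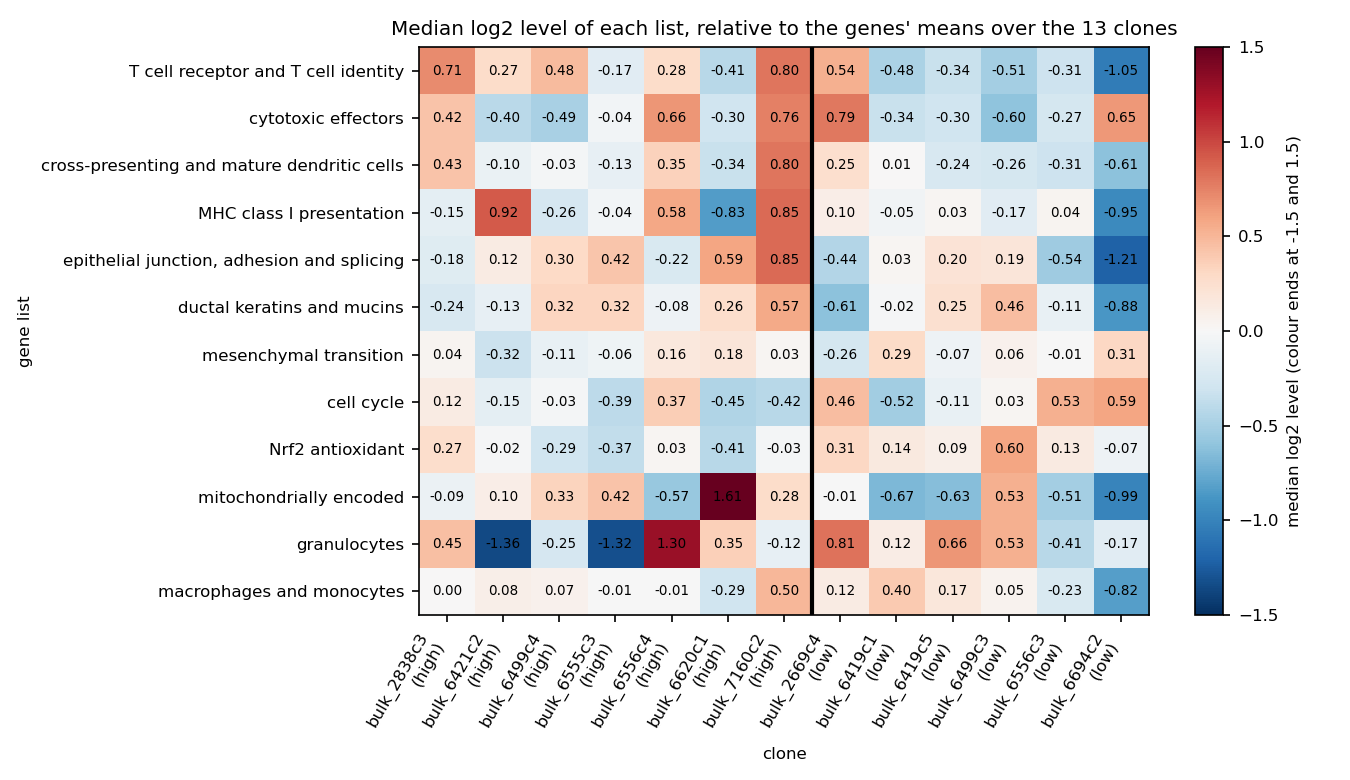
Median log2 level of 12 gene lists in each of the 7 high clones (left of the line) and 6 low clones (right), relative to the genes' means over the 13 clones. The T cell row is below 0 in high clones bulk_6555c3 and bulk_6620c1 and at 0.54 in low clone bulk_2669c4.

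Genes whose high and low clones did not overlap numbered 18 (0.111% of those tested), 8 higher (0.0494%) and 10 lower (0.0617%). With so few clones, some of 16201 genes separate by chance, and this count was not tested against the number expected. Lack of overlap alone therefore does not set these genes apart. Fam43a (chr16:30599723-30602797), which had the smallest p of all genes, ranged from 35.1 to 67.5 CPM in high libraries, with a median of 42.2 CPM, and from 69.3 to 101 CPM in low libraries, with a median of 83.7 CPM. Its difference was -0.97 (SE 0.16, edgeR adjusted p = 0.283, DESeq2 adjusted p = 0.000145). Epha4 was at 31.6 to 97.0 CPM in high and 20.3 to 29.2 CPM in low clones, and Spock2, a matrix proteoglycan gene, at 1.93 to 27.3 and 1.07 to 1.85 CPM. Tnfsf18, the gene of the ligand that costimulates T cells through GITR, was at 2.59 to 14.98 and 0.360 to 2.43 CPM, a difference of 2.05 (SE 0.50). Trim47 was at 23.3 to 70.2 and 70.9 to 121 CPM, and Krtcap2 at 49.6 to 75.6 and 78.8 to 106 CPM. The histone genes Hist1h4h and Hist1h2be, the small RNA gene Rn7sk and Rbpsuh-rs3 belong to families of near-identical copies, so their levels are uncertain.

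**Figure D5:**
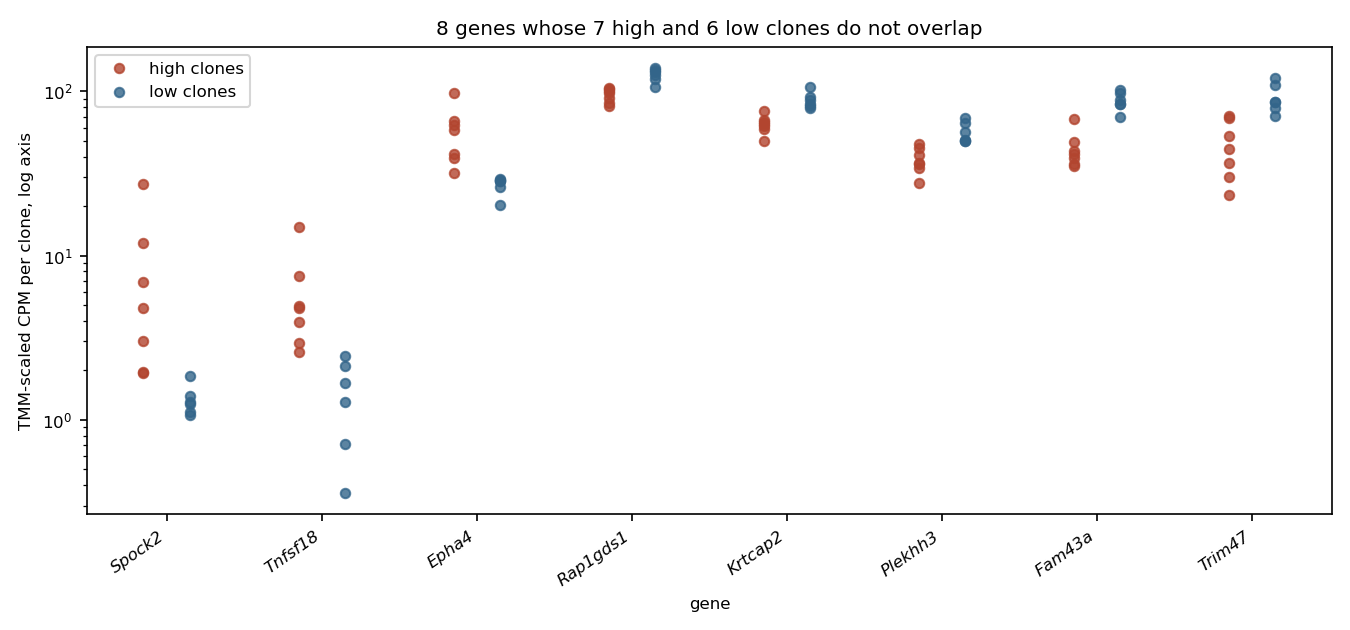
TMM-scaled CPM on a log axis in each of 7 high and 6 low clones for 8 of the genes without overlap between the groups. Fam43a lies at 35.2 to 67.8 CPM in high clones and 69.6 to 101 CPM in low clones, and Epha4 at 31.6 to 97.0 and 20.3 to 29.2 CPM.

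Further genes with a small p were expressed at low to high levels. Atp6v0e2, a proton pump subunit gene, was at 4.15 ± 4.48 and 0.151 ± 0.0905 CPM (4.74, SE 0.83, edgeR adjusted p = 0.398). Low clones held only 0.0350 to 0.306 CPM of Atp6v0e2, so it passed the expression filter through high clones. It could be tested in 17 of 25 alternative settings, and not without high clone bulk_6620c1. Ephx4, Sh2d4b, Ap3b2 and Nfe2l3 differed by 3.43 (SE 0.65), 2.07 (SE 0.42), 3.10 (SE 0.69) and 2.59 (SE 0.59), each with 6 of 7 high clones above every low clone. Nfe2l3, a basic leucine zipper factor related to Nrf2, was at 35.8 ± 17.1 and 5.94 ± 5.58 CPM. St6gal1, a sialyltransferase, was at 152 ± 39.7 and 282 ± 54.2 CPM, a difference of -0.89 (SE 0.18), and Emp2, Dusp18, Rap1gds1 and Plekhh3 differed by -1.11 (SE 0.24), -0.81 (SE 0.18), -0.41 (SE 0.10) and -0.56 (SE 0.14). Pcdh7, a protocadherin, was at 10.1 ± 7.18 and 55.0 ± 31.8 CPM (-2.44, SE 0.55). Rhox5, a homeobox gene of the germ line, rested on 1 low clone: its difference was -7.16 (SE 1.75), and -1.96 without bulk_6419c5.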

How the data were processed

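RNA of whole tumours was sequenced on an Illumina NextSeq 550, per the labels' protocols. The authors deposited 1 table of raw read counts per gene, made with STAR and featureCounts on mm10, per the submitters' processing notes. The handling of strand was not given in the sources used here, nor were versions. Of its 39017 genes, 37607 had an identifier in GENCODE M21. Counts of libraries of 1 clone were summed, and 7 high and 6 low clones were compared with edgeR 4.0.16 in R 4.3.3 (filterByExpr, TMM, quasi-likelihood test, two-sided, Benjamini-Hochberg over 16201 genes, threshold 0.05). The common biological coefficient of variation was 0.409. Nothing in the labels says whether samples of a group came from separate cultures or animals. The p-values measure only the spread between these clones, most with 1 tumour each, which may be in part technical. DESeq2 1.42.0, limma 3.58.1, other scalings and filters, other library sets and each clone left out were alternatives. The script was tested on simulated data. Members and gene lists were chosen with earlier results of these data known, and lists are described by counts and medians. Genes named by rule are the 7 markers, the 10 smallest p in each direction (mean of at least 1 CPM in a group, no predicted genes), the 2 smallest p in each of 37 lists and the 5 largest differences in each direction without overlap; other list members named were chosen after their values were seen. Some genes that the rule names are not reported here.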

Additional observations from a re-analysis of the deposited data

Results flagged for a closer look

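Levels of 93 named genes were examined in both groups of clones, 186 groups in all, for a single clone far from the rest, and 13 such clones were found. Chance marks about 1 in 20 groups. Among low clones, bulk_2669c4 had 1.93 CPM of Pdcd1 against 0.404 to 0.550 in the others, bulk_6419c5 had 25.3 CPM of Sox17 against 2.31 to 5.01, and bulk_6419c1 had 51.6 CPM of Fgb, a liver gene, against 0.110 to 1.47. Far below the other low clones were bulk_6694c2 for Epha4 (20.3 CPM) and Btla (0.330 CPM), bulk_6499c3 for Emp2 (59.4 CPM) and Prss2 (0.088 CPM), and bulk_6556c3 for Pcdh7 (5.74 CPM, against 40.4 to 100.3). Among high clones, bulk_2838c3 was lowest for Nfe2l3 (3.49 CPM against 27.5 to 52.3) and for Cdx2 (0.936 CPM against 17.5 to 53.5). Clone bulk_6421c2 was lowest for Prdm1 (5.63 CPM), and bulk_7160c2 was lowest for Bop1 (62.0 CPM) and highest for Gstm2 (24.4 CPM).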

How the results depend on the processing

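Of 93 named genes, all kept their direction with RLE size factors, library totals, no filter, DESeq2, intermediate clones added and libraries above 10 CPM of Alb left out. edgeR called 0 genes; DESeq2 called 60, single libraries ignoring the clone called 1, and leaving out 1 clone gave 0 to 2 (Fam115a and Fam43a without bulk_6556c4). Genes at an unadjusted p under 0.05 numbered 1071, 2007 with no filter, 1725 with all high and low libraries and 795 to 1461 with 1 clone left out. The clone number as replicate block gave 0 called and 1384 at an unadjusted p under 0.05, with 2 residual degrees of freedom. Deviations of the 2 pairs of a high and a low clone that share a number correlated at -0.08 and 0.33. Both values lay within the range of pairs with different numbers, -0.344 to 0.345. What the number stands for is not stated, so the clones were not treated as paired. Under that block the sign turned for Rhox5 (1.07), Spp1 (0.081), Irf9 (-0.016), mt-Nd2 (-0.032), Bmp7 (-0.30), Fabp4 (0.11), Eno3 (0.40), Myh4 (0.65) and Krt79 (0.91). With all libraries it turned for mt-Nd2 (-0.021), Actc1 (-0.14) and Amy1 (-0.10), and with limma voom for Myh4 (0.25). With 1 clone left out, Klra4 ran from -0.88 to 0.065 and Myh4 from -1.04 to 0.73. These genes had adjusted p-values above 0.05 throughout, and the cause was not tested. The counts of list members by setting were added after seeing the data: for the T cell list the count of 9 ran from 2 to 23, for the epithelial list the count of 18 ran from 12 to 24. Low libraries held 1 to 66 counts of Cd8a, which limits its precision there.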

Other observations

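Among the genes that DESeq2 called and edgeR did not, several stand outside the lists. They were chosen after their values were seen. Lama3, a laminin chain of basement membranes, averaged 84.8 CPM over high and 25.1 CPM over low clones (DESeq2 adjusted p = 0.0110). Cybrd1, an iron reductase, was at 22.1 and 3.57 CPM, and Slc38a1, a glutamine transporter, at 50.1 and 13.2 CPM. Tm4sf1, a tetraspanin-like surface protein, was lower, at 385 and 869 CPM, with a log2 difference of -1.18.

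Of the 60 genes, 8 held more than 50% of their summed level in 1 clone. Of all genes tested, 98 (0.605%) did so, a smaller share than among the DESeq2 calls. Wt1, the Wilms tumour factor, averaged 0.445 CPM over high clones and 11.2 CPM over low clones, with 74.9% of the summed level in low clone bulk_6419c1. Stmn2, a neuronal microtubule regulator, was at 38.5 and 1.03 CPM, with 51.3% in high clone bulk_6499c4.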
